A study of Homo sapiens with 4 samples.

Results

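Unedited HEK293 cells, a transformed line derived from human embryonic kidney tissue, were profiled by RNA-seq in 2 biological replicates labelled WT, with no treatment and no introduced allele. They served in the study as the parental cells of a HEMK1 knockout clone, and 2 of the 4 libraries of the series are WT. Only those 2 libraries were used, so no genotype was compared. Of 78686 features in each count table, 9538 (12.1%) had 10 or more counts in both WT libraries and are described as counted genes. A further 15183 features had at least 1 count but missed that minimum, and 53965 had no count in either library. The counted genes held 98.4% of the counts of WT replicate 1 and 98.3% of those of WT replicate 2. The labels state that the replicates are biological but not which culture each came from.

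In a growing mammalian cell the messenger RNA pool is uneven. A small set of genes for protein synthesis, energy metabolism and the cytoskeleton supplies much of it, while most regulators and receptors are rare. HEK293 was made by transformation with sheared adenovirus DNA, and its tissue of origin has been debated because it transcribes genes of neuronal, mesenchymal and epithelial cells side by side. Vertebrate mRNAs for ribosomal proteins and several translation factors begin with a terminal oligopyrimidine tract, a cytosine followed by pyrimidines, through which the kinase mTOR controls their translation.

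The libraries were shallow and similar in size. WT replicate 1 held 2476471 counts over 20575 features with at least 1 count, and WT replicate 2 held 2671594 counts over 21639. A count of 10 equalled 4.04 counts per 1000000 (CPM) in replicate 1 and 3.74 CPM in replicate 2, and no count allowed a level of up to 1.21 and 1.12 CPM. Intervals and these limits cover counting error only. HEMK1, the gene knocked out elsewhere in the series, was itself below the minimum in WT cells, with 6 and 9 counts. The members with the lowest counts were CRY1, C10orf95 and INTS11, each with 10 counts in either library. Just outside stood GLCCI1 with 9 and 38 counts, GJA5 with 9 and 29, and RAB27B with 9 and 28.

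Because CPM grows with transcript length, genes were ranked against each other on a per-length scale. Counts were divided by the merged exon length of the gene and scaled to sum to 1000000 in each library, and are called TPM here. CPM was kept for comparing the same gene between libraries and for shares of a library.

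First-base sequences are shown for examples of abundant translation mRNAs that carry a run of pyrimidines. Others of similar or higher level, such as RPL7 at 5712 CPM, are not shown, and part of the class lacks such a run. Each line gives 15 bases before and 15 bases from the RefSeq transcription start on GRCh38.p14, 5′ to 3′ on the gene's strand. Capitals mark a run of pyrimidines that begins with C at the annotated start and holds at least 4 further C or T. The last 3 lines show examples of abundant mRNAs outside this class, in which no such run starts at the annotated position.
EEF1A1 (chr6:73521018-73521047, minus strand): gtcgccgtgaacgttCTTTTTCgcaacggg
RPS3 (chr11:75399503-75399532, plus strand): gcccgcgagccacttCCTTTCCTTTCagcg
RPS6 (chr9:19380222-19380251, minus strand): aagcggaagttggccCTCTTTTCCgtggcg
RPS3A (chr4:151099613-151099642, plus strand): cgactcccacttccgCCCTTTTggctctct
RPLP0 (chr12:120201097-120201126, minus strand): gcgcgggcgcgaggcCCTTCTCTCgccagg
RPL7A (chr9:133348203-133348232, plus strand): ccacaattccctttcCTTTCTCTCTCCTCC
RPS18 (chr6:33272060-33272089, plus strand): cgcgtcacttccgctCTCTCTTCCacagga
RPS27 (chr1:153990747-153990776, plus strand): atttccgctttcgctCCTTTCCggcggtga
EIF2S3 (chrX:24054941-24054970, plus strand): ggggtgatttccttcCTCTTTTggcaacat
FTL (chr19:48965294-48965323, plus strand): tagccacgtcccctcgcagttcggcggtcc
TMSB10 (chr2:84905641-84905670, plus strand): gggcgccgctcttttgtttcttgctgcagc
TXN (chr9:110256493-110256522, minus strand): caagcagcgagtcttgaagctctgtttggt

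Such a run was present at the annotated start of 48 of 64 cytosolic ribosomal protein genes with a RefSeq window (75%) and of 13 of 46 translation factor genes (28.3%). Over all 15298 protein-coding genes with a window it was present in 970 (6.34%). Among coding genes counted in both libraries the share was 8.11% (525 of 6471), and among those under the minimum it was 5.04% (445 of 8827). Outside the ribosomal protein list, 11 of the 52 genes with a window among the 100 coding genes of highest TPM had it (21.2%). The match was made on the gene's own strand at a single annotated start, so genes with several starts may hold a run elsewhere.

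The RNA pool was concentrated in few genes. The 10 most abundant genes held 6.88% of the counts in WT replicate 1 and 7.41% in WT replicate 2, the top 100 held 28.5% and 27.7%, and the top 1000 held 67.0% and 65.7%. It took 401 genes in replicate 1 and 435 in replicate 2 to reach 50% of the counts. The median counted gene stood at 24.4 CPM, the middle 50% of genes ran from 10.1 to 73.5 CPM, and the highest reached 10573 CPM. Of the counted genes, 1846 (19.4%) reached a mean of 100 CPM, 136 reached 1000 CPM and 14 reached 5000 CPM.

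Protein-coding genes held 89.3% of the counts in both libraries. Of 19827 protein-coding genes in GENCODE 29, 7746 (39.1%) were counted. Genes annotated as antisense took 3.58% and 3.39% of the counts, with 546 of 5317 counted. Whether the reads kept their strand is not given, so antisense transcripts cannot be told apart from those of a partner on the opposite strand. Processed pseudogenes, which are retrotransposed copies of mRNAs, took 1.70% and 1.16%, with 399 of 10636 counted. Other long non-coding RNAs held 1.66% and 1.92% over 337 counted genes, and 464 counted features that GENCODE 29 does not list held 2.64% and 2.86%. Reads that fit a pseudogene and its parent equally well can be assigned to either, so single pseudogene values are uncertain.

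In CPM the leading gene was EEF1A1, the factor that delivers aminoacyl-tRNA to the ribosome, at 11828 CPM in WT replicate 1 and 9317 CPM in WT replicate 2. MT-CO1, the mitochondrially encoded catalytic subunit of cytochrome c oxidase, followed at 6009 and 11209 CPM, and the mitochondrial large ribosomal RNA MT-RNR2 stood at 6799 and 8836 CPM. PLS3, an actin-bundling protein, had 7862 and 7313 CPM. These genes changed order between the libraries: EEF1A1 led in replicate 1 and MT-CO1 in replicate 2. The remaining genes of the first 10 were RPS3, TMBIM6, MT-CO2, RPL7, MT-CO3 and UBB, all between 4839 and 7141 CPM in either library.

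Per length, short mitochondrial and structural transcripts led. MT-CO2 reached 22400 and 26938 TPM, and MT-CO3 reached 17729 and 23424 TPM, both being subunits of cytochrome c oxidase. H4C3, a core histone H4 gene, had 17543 and 16342 TPM. FTL, the light subunit of the iron store ferritin, had 8186 and 10616 TPM, the monomeric actin-binding protein TMSB10 had 7862 and 8197 TPM, and the polyubiquitin gene UBB had 9937 and 9401 TPM. EEF1A1, first in CPM, was 21st of all counted genes per length at 5134 ± 818 TPM (SD, n = 2), since its merged exons span 5948 bases.

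Several of the 25 highest levels belonged to features whose counts cannot be read as a separate transcript. ENSG00000265401, an antisense gene of 461 exon bases lying wholly within UBB exons on chromosome 17, had the highest level of all at 27247 and 23874 TPM. The other antisense genes of that group lay opposite partner exons to different extents. ENSG00000269968 had 100% of exon bases opposite GAPDH, TUBA1B-AS1 80.2% opposite TUBA1B, HNRNPK-AS1 79.2% opposite HNRNPK and ENSG00000264577 17.2% opposite RPL23A. Most exon bases of ENSG00000264577 thus lay outside RPL23A exons. MT-TS1 (425 and 1034 counts), MIR1282 (432 and 561) and the processed pseudogene ENSG00000279483 (621 and 515) have 69, 101 and 75 exon bases. Division by these short lengths moved them from ranks 678, 981 and 852 by CPM to ranks 8, 18 and 12 by TPM.

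**Figure D1:**
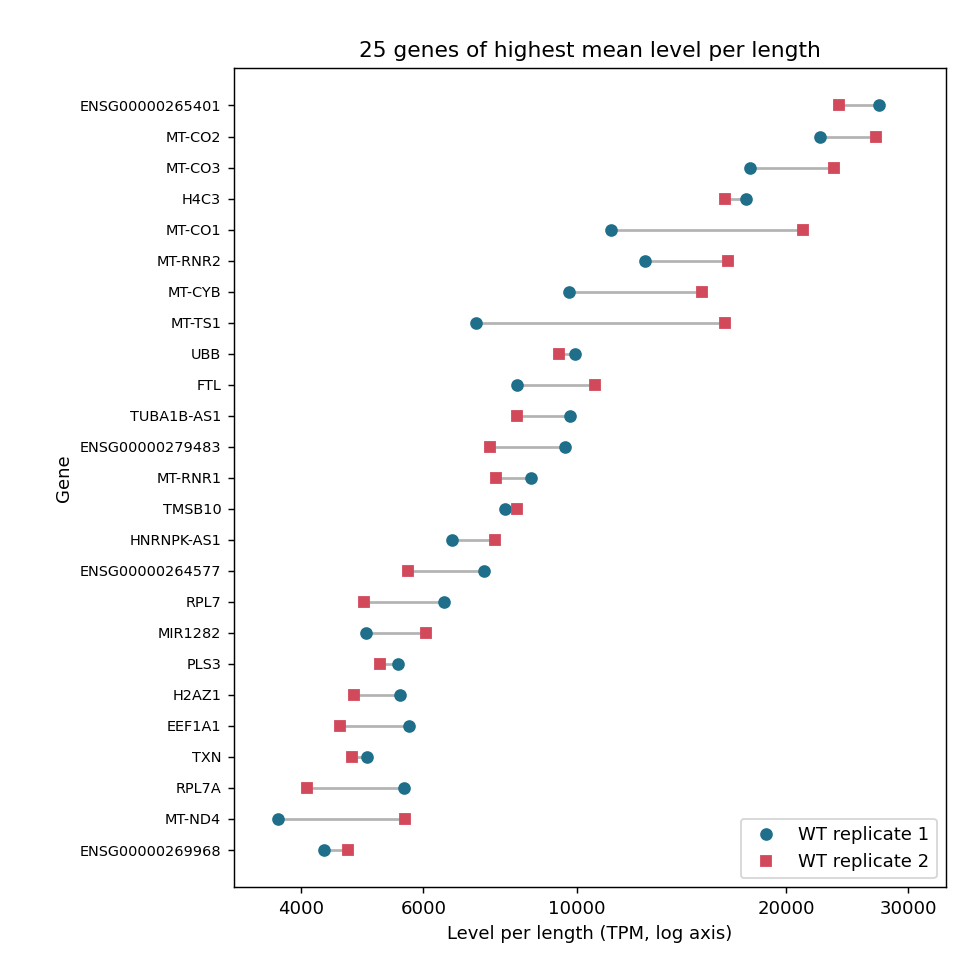
Level per length in TPM (log axis) of the 25 genes with the highest mean, with 1 circle for WT replicate 1 and 1 square for WT replicate 2 per gene. MT-CO1 and MT-TS1 lie farthest apart between the libraries, and TMSB10 and UBB lie among the closest pairs.

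Protein synthesis was the largest functional class. The 80 cytosolic ribosomal protein genes, whose products build the cytosolic ribosome, took 10.2% of the counts in WT replicate 1 and 8.11% in WT replicate 2 (9.14% ± 1.46, SD, n = 2), and 77 of them were counted. RPL7 (5674 ± 1053 TPM), RPL7A (4851 ± 1096 TPM), RPS3A and RPS6 had the highest levels per length of the list, and its median member stood at 693 TPM against 17.1 TPM over all counted genes. Genes of the list that missed the minimum included RPS10 with 3 and 7 counts and RPL17 with 3 and 1. Initiation factors took 2.10% and 2.11% with 36 of 40 genes counted, led by EIF2S3, the gamma subunit of the factor that carries the initiator tRNA, at 4333 TPM. Elongation and release factors took 1.75% and 1.44% with 14 of 17 counted, and most of that was EEF1A1. EEF2, the translocase, had 202 ± 26.1 TPM, while EEF1G, a subunit of the same exchange complex as EEF1B2 (1093 TPM), was listed at 0 counts in both libraries. Genes mostly covered by another gene on the same strand were seldom counted, as described below. Such overlap is not reported here for RPS10, RPL17 and EEF1G, so their low counts are not read as low transcript levels.

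Energy metabolism came next. All 13 mRNAs of mitochondrial DNA were counted and together held 2.50% and 3.67% of the counts, with a median of 3149 TPM. Within them the levels spanned from 366 ± 4.93 TPM for MT-ATP8, a subunit of ATP synthase, to 24669 ± 3209 TPM for MT-CO2. Nuclear genes of the respiratory chain and ATP synthase took 1.82% and 1.63% with 67 of 79 counted and a median of 153 TPM. UQCR10, a small subunit of complex III, led that list at 3160 TPM, followed by the complex I subunit NDUFS5 at 2380 TPM. Glycolysis took 0.679% and 0.728% with 15 of 19 genes counted. TPI1, which interconverts the triose phosphates, led at 1662 ± 380 TPM, followed by GAPDH at 1526 ± 56.5 TPM, PGK1 at 507 ± 44.5 TPM and LDHA at 452 ± 6.46 TPM. The glycolytic genes that missed the minimum were SLC2A1, HK2, PFKL and ALDOA. Their overlap with other genes on the same strand is likewise not reported here, so low transcript levels are not inferred.

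Genes of dividing cells were mostly counted, beside 39.1% of all coding genes. Of the DNA replication list 32 of 36 genes were counted, led by topoisomerase TOP2A at 1104 ± 100 TPM and the polymerase alpha catalytic subunit POLA1 at 486 ± 47.4 TPM. Of the mitosis list 35 of 37 were counted, led by the securin PTTG1 at 1033 ± 125 TPM, the mitotic kinase CDK1 at 764 ± 47.6 TPM and the cyclin CCNB1 at 622 ± 54.4 TPM. PLK1 (12 and 7 counts) and NUSAP1 (0 and 1 counts) were the mitosis genes below the minimum. Same-strand overlap is not reported here for them, so their low counts are not read as low transcript levels. Among G1 regulators and their inhibitors, 16 of 27 were counted. The ubiquitin ligase MDM2 led at 284 ± 47.2 TPM, while RB1 stood at 16.7 ± 0.975 TPM. Adenovirus early proteins are known to bind the product of RB1.

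Protein folding, turnover and RNA processing held smaller shares. Cytosolic chaperones held 1.43% and 1.22% of the counts, with HSP90AB1 at 2342 ± 519 TPM and HSPA8 at 1188 ± 77.7 TPM. Proteasome subunits held 0.889% and 0.880% with 30 of 32 counted, led by the catalytic subunit PSMB5 at 969 TPM. None of the 3 immunoproteasome subunits was counted. The hnRNP proteins, which package nascent RNA, held 1.48% and 1.41%, led by HNRNPA1 at 2754 TPM. Splicing factors held 1.43% and 1.35%, tubulins and microtubule proteins 1.19% and 1.09%, and the actin cytoskeleton 1.02% and 1.05%.

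**Figure D2:**
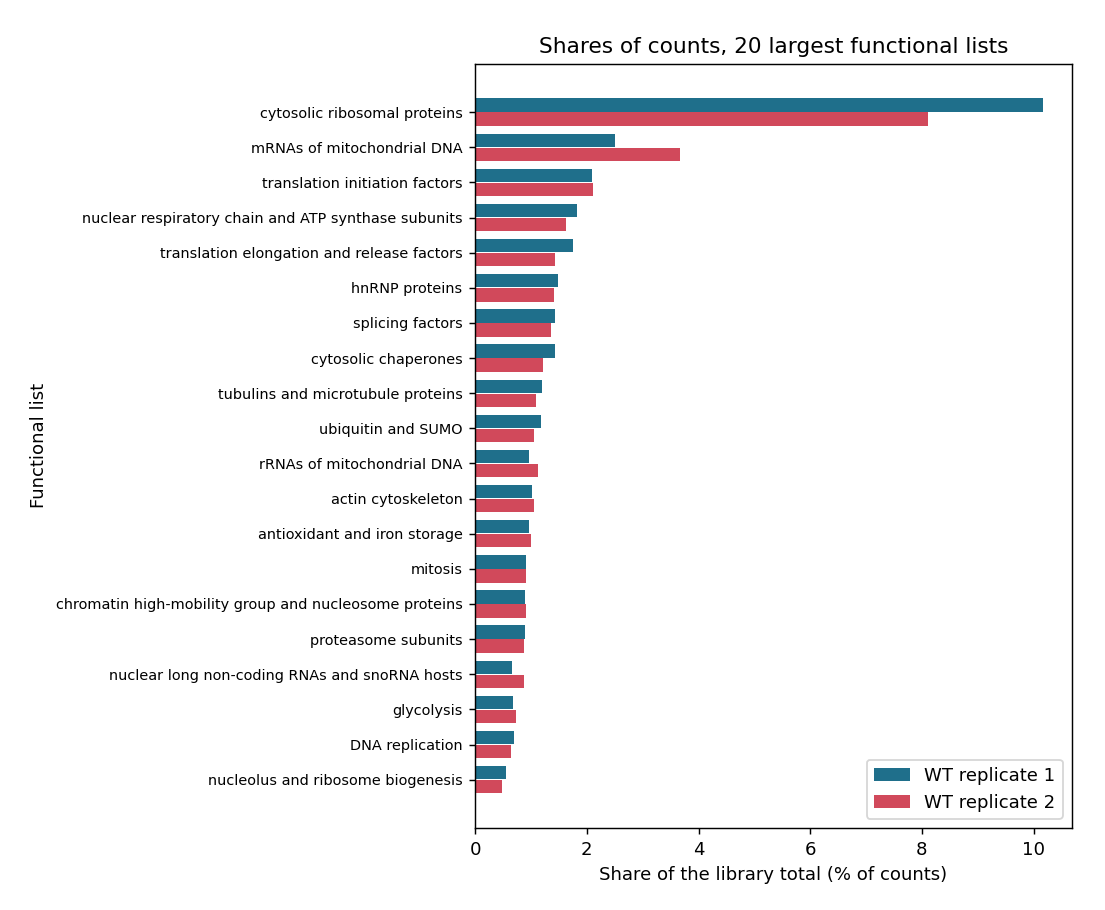
Share of the library total in percent for the 20 functional lists with the largest shares, with 1 bar per WT library. Cytosolic ribosomal proteins (10.2% and 8.11%) and mRNAs of mitochondrial DNA (2.50% and 3.67%) are the lists with the largest gaps between the libraries.

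Replication-dependent histone genes, most of whose mRNAs end in a stem-loop and carry no poly(A) tail, were nearly absent apart from H4C3. Of 51 genes, 5 were counted and 31 had no count in either library. H2BC12, the next in level, had 118 TPM against 16942 ± 850 TPM for H4C3. The histone variants with polyadenylated mRNA were led by H2AZ1, which reached 5162 ± 559 TPM. Selenoproteins, which contain selenocysteine, had 11 of 24 genes counted, with SELENOF at 766 ± 53.1 TPM and the secreted selenium carrier SELENOP at 703 ± 24.3 TPM.

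Antigen presentation and interferon-related genes were uneven. B2M, which encodes the invariant light chain of class I molecules, stood at 616 ± 26.3 TPM. The heavy chain genes HLA-C and HLA-B stood at 5.14 and 4.40 TPM and were the only other counted members of the 11-gene list. Paralogues may share reads, and detection varied with GC content as described below. The part of either in these low heavy chain values was not tested, so they are not read as low transcript levels. Of 22 interferon-stimulated genes, 11 were counted (all coding genes 39.1%), led by the membrane protein IFITM1 at 259 ± 13.1 TPM and followed by IFITM3 at 89.0 ± 12.8 TPM. The RNA sensor RIGI and the antiviral genes OAS2, XAF1 and IRF7 had 0 counts.

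The lists of receptors and channels differed in how many genes were counted, beside 39.1% of all coding genes. Among growth factor receptors 13 of 29 were counted, with the insulin receptor INSR at 102 ± 10.99 TPM and the receptor kinase AXL at 69.8 ± 6.74 TPM. EGFR had 32 and 33 counts. Of the listed G protein-coupled receptors 7 of 28 were counted, led by the orphan receptor GPRC5A at 158 ± 26.1 TPM and the sphingosine 1-phosphate receptor S1PR2 at 85.7 TPM. The muscarinic receptor CHRM3 had 44 and 36 counts. Potassium and sodium channels had 5 of 30 genes counted and together held 0.00485% and 0.00569% of the counts. Of the chloride, TRP, PIEZO and other channel genes listed apart from these, 9 of 25 were counted, a share near that of all coding genes. The chloride-proton exchanger CLCN3 led that list at 117 ± 1.78 TPM.

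The marker lists for cell identity were mixed, and their counts stand beside the 39.1% of all coding genes that were counted. Detection fell with GC content, as described below, from 65.7% of coding genes in the lowest of 5 GC bins to 6.81% in the highest. The part of GC content in the counts of these and the other lists was not tested. Of 27 renal epithelial markers, 3 were counted, among them the developmental regulator EYA1 (16 and 30 counts) and the podocyte surface protein PODXL (20 and 32 counts). PAX2, SIX2, LHX1, HNF4A and UMOD were among 14 with no count in either library, and PAX8 had 1 count in each. Neuronal markers had 6 of 25 genes counted, with UCHL1 at 54.0 TPM, ENO2, NEFL and MAP2, while TUBB3 had 1 and 0 counts and STMN2 and ELAVL4 had none. Mesenchymal markers had 10 of 20 counted, led by SPARC at 157 ± 8.60 TPM, S100A4 at 151 TPM, VIM at 76.0 TPM and ZEB1 at 70.2 TPM. Epithelial markers had 5 of 19, led by KRT8 at 21.3 TPM and KRT18 at 18.3 TPM, and EPCAM (1 and 2 counts) and CDH1 (2 and 2 counts) fell below the minimum.

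Markers of blood, liver, adrenal and endothelial cells were at or near 0. Blood and immune markers had 0 of 19 genes counted and 16 with no count in either library, and liver markers had 0 of 13 counted and 12 with no count. Adrenal and neural crest markers had 0 of 15 counted, of which 11 had no count, and endothelial markers had 0 of 7. Muscle markers had 2 of 13 counted, TTN at a mean of 63.2 CPM and TNNT1 with 18 and 11 counts. Per length, the median of these 2 genes was 4.55 TPM, below the 17.1 TPM of the median counted gene. The pluripotency and germ cell list had only LIN28B, an RNA-binding repressor of let-7 maturation, counted of 16, at 36.3 ± 4.10 TPM. HOX genes had 2 of 39 counted, HOXA3 and HOXC10, and imprinted genes had 4 of 22.

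Within gene families, usually a single paralogue held most of the summed level per length. Members of a family also differed in GC content, with which detection varied as described below. The leader had the lower GC in some families (SLC2A3 45.8%, SLC2A1 54.8%) and the higher in others (FTL 56.3%, FTH1 50.1%). The part of GC content in these shares was not tested. EEF1A1 held more than 99% of its pair with EEF1A2. Among glycolytic isoforms, PFKM held 96.0% ± 0.377 (SD, n = 2), ENO1 held 94.2% ± 0.251, and the glucose transporter SLC2A3 held 95.5% ± 1.29 while SLC2A1 held 2.16%. LDHA held 62.6% ± 2.64 of lactate dehydrogenase, LDHB 28.6% ± 0.966 and LDHC, an isoform known for testis, 8.82% ± 1.67. With the longest transcript as the length these shares were 71.4%, 24.6% and 4.02%, and by undivided counts 78.9%, 17.3% and 3.76%. The SD covers the libraries and not the choice of length. Cyclin CCND2 held 95.9% ± 1.91 of the D cyclins, since CCND1 had only 6 and 20 counts. N-cadherin (CDH2) held 97.03% ± 0.474 of the classical cadherins. FTL held 99.2% ± 0.209 of ferritin, because FTH1, the heavy subunit, had 132 and 123 counts against 6196 and 8562 for FTL. Where a gene has pseudogene copies, reads may be assigned to those instead, and the effect on this split was not tested.

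Other families were shared more evenly. ACTG1 held 65.9% ± 0.828 and ACTB 33.2% ± 0.643 of their group. Among 14-3-3 proteins YWHAZ held 43.8% ± 1.16 and YWHAE 38.4% ± 0.669, and among peroxiredoxins PRDX1 held 49.9% ± 5.53 and PRDX3 30.02% ± 4.51. TUBA1B held 68.8% ± 0.585 of the alpha-tubulins. The leader was the same with the longest transcript as the length in all 28 families, and in 1 of 28, the peroxiredoxins, undivided counts put another member, PRDX3, first. Near-identical paralogues such as TUBA1A and TUBA1B may share reads, so their split is uncertain.

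**Figure D3:**
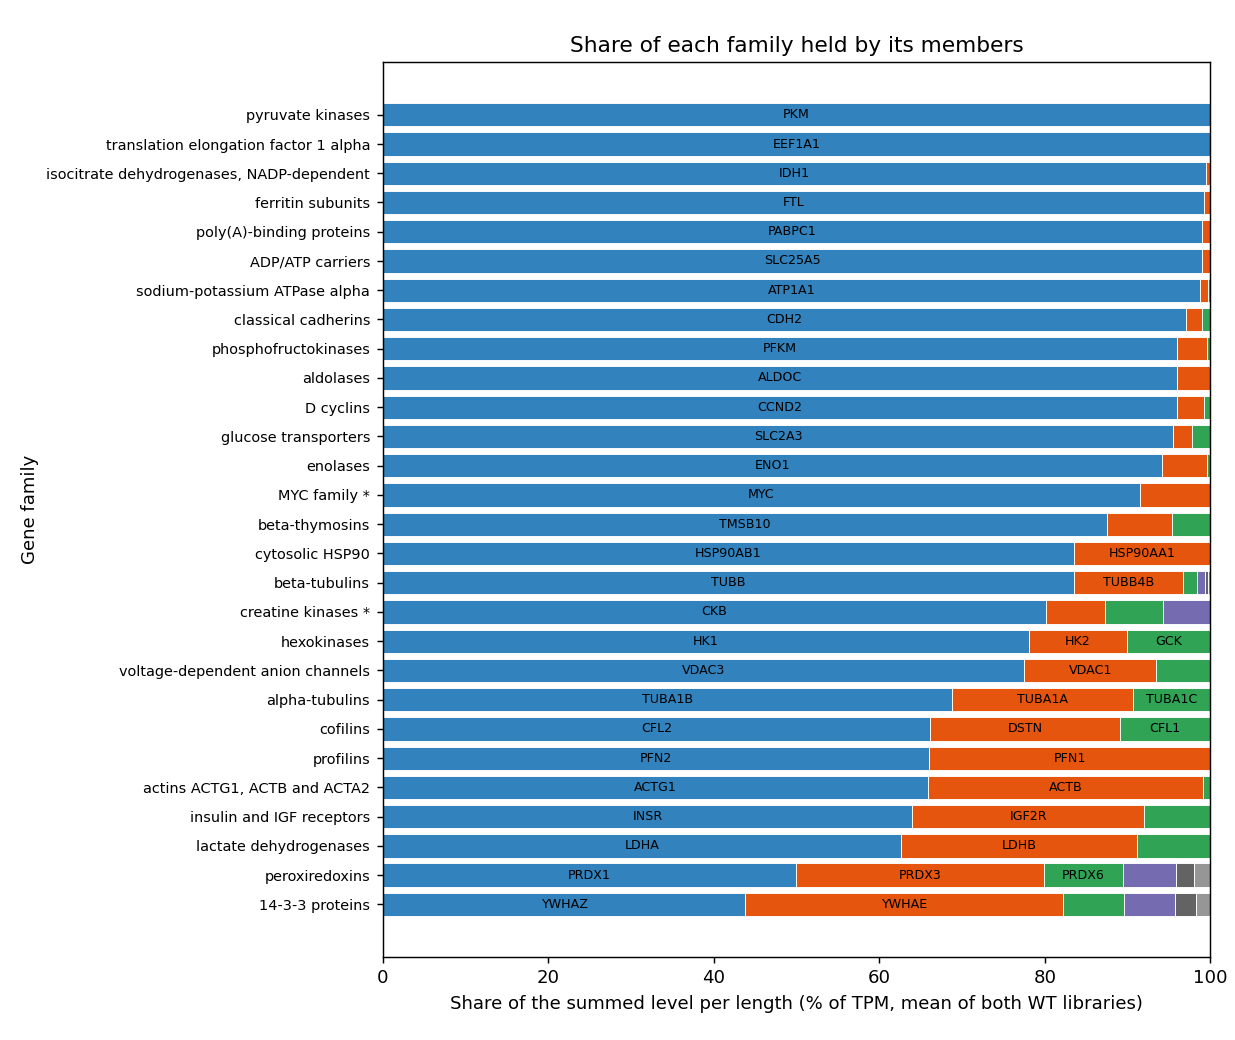
Share of the summed TPM of each of 28 gene families held by each member, in percent, as the mean of both WT libraries. Members are ordered from the largest share at the left, those with small shares are not named, and an asterisk marks a family whose leading member had fewer than 10 counts in a library.

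Detection differed with base composition. When the protein-coding genes were placed in 5 equal bins by the GC content of their longest transcript, 65.7% of the bin with the lowest GC (median 38.7% GC) were counted in both libraries, then 55.4%, 42.0%, 25.4% and 6.81% in the bin with the highest GC (median 61.8% GC), against 39.1% of all coding genes. The lowest bin held 30.6% of all counts of WT replicate 1 and the highest 0.940%. Among counted genes the median level across the same bins was 19.5, 15.7, 13.04, 9.04 and 7.60 TPM. Within each of 5 bins of transcript length the same order was seen at its ends: 26.7% against 4.16% of the shortest genes were counted at the lowest and highest GC, and 82.1% against 18.9% of the longest. With coding genes that share exon bases with another gene left out, the ends stood at 59.8% and 5.57%.

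**Figure D4:**
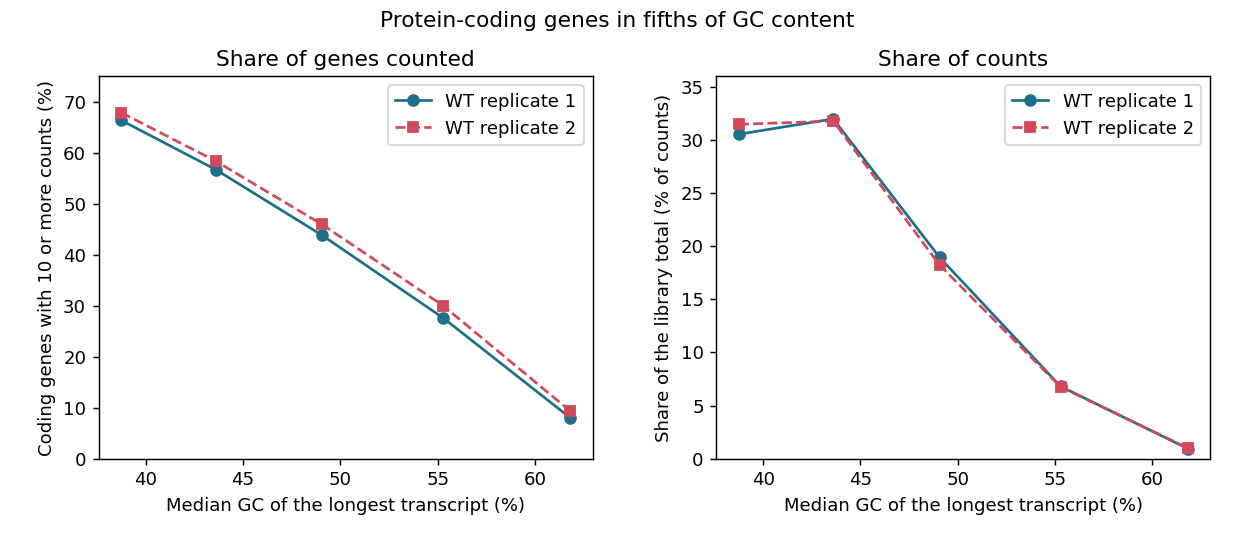
Protein-coding genes in 5 equal bins of GC content, plotted at the median GC of each bin in percent, with 1 line per WT library. The left panel gives the percent of genes with 10 or more counts in that library and the right panel the percent of its counts, and both libraries have their lowest values in the bin at 61.8% GC.

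The same order appeared inside functional lists. In the nuclear respiratory chain list, the 39 genes of lower GC had a median of 153 TPM and the 39 of higher GC a median of 20.5 TPM. In the DNA replication list the medians were 131 and 15.9 TPM, in the mitosis list 119 and 79.7 TPM, and in the ribosomal protein list 985 and 434 TPM. Proteasome subunits went the other way, at 101 and 206 TPM. Genes usually abundant in cultured cells that stood low here included ALDOA with 2 and 0 counts, the actin cross-linker FLNA with 12 and 11, and profilin PFN1 with 55 and 60. They were named after their values were seen. Single genes of similar GC differed: ALDOA stood at 54.3% GC, and TUBA1B, at 54.7% GC, had 11922 and 11252 counts. This pair was also picked after its values were seen and does not bear on the order across bins. Same-strand overlap, described below, is not reported here for ALDOA, FLNA and PFN1. Their low counts are therefore not read as low transcript levels. The part that base composition plays in these levels, through the cells or through library preparation, was not tested.

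Coding genes mostly covered by another gene on the same strand were seldom counted. Coding genes with 90% or more of their exon bases covered by another gene on the same strand were counted in 2 of 443 cases (0.451%), and those with 50% to under 90% covered in 6.44%, against 40.2% of coding genes with no such overlap. Lesser overlap did not go that way: 43.9% were counted with under 50% covered on the same strand. On the opposite strand the shares were 34.2% with no overlap, 49.0% with under 50% covered, 36.2% with 50% to under 90%, and 12% (3 of 25) with 90% or more. Reads that fit several genes on a strand cannot be given to a single gene, so the levels of such genes are uncertain.

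Antisense genes were counted mainly where they lay opposite the exons of a transcribed partner. Of antisense genes with no exon base opposite another gene's exon, 55 of 2322 were counted (2.37%). The share was 15.5% with under 50% of exon bases opposite, 17.9% with 50% to under 90%, and 19.6% (77 of 392) with 90% or more. When the partner stood at 100 CPM or more, 27 of 30 were counted with at least 90% of exon bases opposite (90%). With such a partner, 122 of 185 were counted at under 50% opposite (65.9%) and 24 of 34 at 50% to under 90% (70.6%). Among antisense genes that themselves passed the minimum, at any partner level, the median log2 ratio of counts per exon base over the partner was -0.11 with under 50% of exon bases opposite the partner (316 pairs), 1.08 with 50% to under 90% (74 pairs) and 1.40 with 90% or more (76 pairs). These medians are a description, since the minimum removed antisense genes with few counts.

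MALAT1, a nuclear long non-coding RNA, and its antisense partner TALAM1 had nearly equal counts. TALAM1 had 9684 and 16930 counts and MALAT1 9619 and 16471, giving ratios of 1.01 and 1.03. TUBA1B-AS1 had 13738 and 12263 counts against 11922 and 11252 for TUBA1B. The antisense gene inside GAPDH had 0.412 and 0.423 times the counts of GAPDH, and that inside UBB 0.780 and 0.722 times those of UBB. HNRNPK-AS1 had 0.280 and 0.305 times the counts of HNRNPK. The ratio therefore differed between loci and was similar in both libraries at each of these. Whether the reads kept their strand is not given in the sources used here, so transcripts of a gene and of its antisense partner cannot be told apart.

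The WT libraries differed by more than counting error. Over the counted genes the chi-square per degree of freedom between the libraries was 5.997, where sampling alone gives a value near 1. The log2 ratio of WT replicate 2 over WT replicate 1 had a median of 0.05, a middle 50% from -0.19 to 0.29 and a median size of 0.24. The log2 CPM values correlated across genes at a Pearson coefficient of 0.978, as a description, since genes are not independent replicates and both libraries share their cell line and counting. For 2045 genes (21.4%) the exact 95% counting interval of the ratio left out equal CPM.

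Large differences were few and mostly at low counts. Past 2-fold stood 270 of 9538 counted genes (2.83%), of which 134 (1.4%) were higher and 136 (1.43%) lower in WT replicate 2. With TMM or DESeq2 size factors, which shift the ratios by 0.05, 107 were higher and 162 lower. The share past 2-fold was 5.92% in the lowest of 5 CPM bins and 0.210% in the highest. Only 4 of the 1846 genes at 100 CPM or more passed 2-fold, namely IGF2R, MT-TS1, HNRNPA1L3 and the pseudogene EEF1A1P9. With 1 library on each side, these values compare libraries and not conditions.

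**Figure D5:**
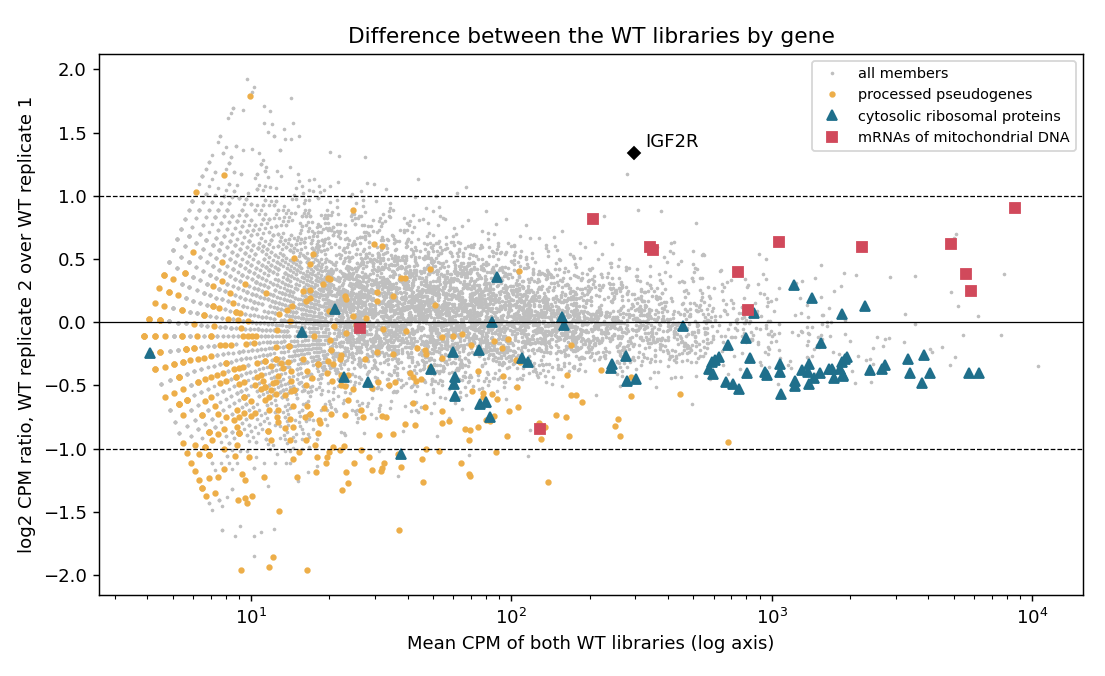
log2 CPM ratio of WT replicate 2 over WT replicate 1 against mean CPM (log axis) for the 9538 counted genes, with dashed lines at 2-fold. Processed pseudogenes and cytosolic ribosomal protein genes lie mostly below 0, mRNAs of mitochondrial DNA mostly above it, and IGF2R stands at 1.34.

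Some gene classes differed between the libraries in a shared direction. Of 399 counted processed pseudogenes, 328 were lower in WT replicate 2 and 71 higher, with a median log2 ratio of -0.47, and 61 of the 136 genes more than 2-fold lower belonged to this type. For cytosolic ribosomal protein genes the median was -0.37, with 68 of 77 lower. The mRNAs of mitochondrial DNA had a median of 0.57, with 11 of 13 higher. MT-CO1 had the largest ratio among them, with 11195 and 21141 TPM, while MT-ND3 went from 1374 to 777 TPM and MT-ATP8 from 370 to 363 TPM. Protein-coding genes as a whole had a median of 0.07 and antisense genes 0.02. The cause of these shifts was not tested.

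The ratio differed with transcript length as well. The median log2 ratio of coding genes was -0.06 in the bin of shortest transcripts and 0.16 in the bin of longest, with 0.04, 0.08 and 0.10 between. Ribosomal protein genes are short as a class, and the part of length in their median was not tested.

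With pseudogenes and genes known only by clone-type names set aside, the largest ratio at a mean of 20 CPM or more was 2.55. FZD5, a Wnt receptor, had 28 counts in WT replicate 1 and 77 in WT replicate 2, and IGF2R, the mannose 6-phosphate receptor, had 416 and 1137. The CPM ratio of IGF2R was 2.53 with an exact 95% counting interval of 2.26 to 2.84. The ubiquilin UBQLN2 had 39 and 104 counts. Further genes among those most in excess in WT replicate 2 were MT-TS1, LARP4B, UBA1, TTBK2, KAT6A, APH1B and ELK4, with log2 ratios from 1.03 to 1.17. In the other direction HNRNPA1L3 had 389 and 202 counts, EIF2S2, a subunit of the same initiation factor as EIF2S3, had 230 and 120, and RPL18 had 126 and 66. OAZ1, RAB31, MCM5, GTF2H2, SNHG8, ZSCAN29, EIF5A2, MT-ND3 and SNRPB followed, with log2 ratios from -1.01 to -0.79.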

How the data were processed

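Total RNA of HEK293 cells was made into libraries with a low-input kit from 100 ng per sample, per the labels. The count tables hold raw read counts per gene deposited by the authors, 1 column per WT library. The submitters' processing notes name FastQC, Trimmomatic, STAR, HTSeq, DESeq2 and hg38, with roles, annotation release and strand setting not given in the sources used here. Knockout libraries and the authors' comparison table were not used. CPM used library totals. TPM used merged exon lengths of GENCODE 29, matched by gene ID without version for 9074 of 9538 counted genes. Merged exons of all isoforms lengthen some genes and lower their TPM. GC content came from the longest transcript. Ratio intervals were exact binomial at 95%. Python 3.11.15, edgeR 4.0.16 (TMM factors) and DESeq2 1.42.0 (size factors) under R 4.3.3 were used, and the scripts were tested on simulated data.

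Named genes were the 25 highest by TPM and 10 highest by CPM, up to 4 leaders per list, all paralogues listed, the 12 largest differences in each direction at 20 CPM or more, HEMK1, and genes beside the count minimum. Others were named for a count or an overlap after their values were seen. The 51 gene lists and the members were chosen with earlier results of these data known. No test between groups was possible with a single group, and no p-value was computed. The labels call the 2 replicates biological but do not name separate cultures. Some genes that the naming rule covers are not reported here.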

Additional observations from a re-analysis of the deposited data

How the results depend on the processing

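The count of genes past 2-fold between the WT libraries, 270, became 705, 79 and 11 with minimums of 5, 20 and 100 counts, and 1439 past 1.5-fold. It was 269 with TMM or DESeq2 factors. The balance of genes higher and lower in WT replicate 2 was near even at 134 and 136, and changed sides with the setting: 388 and 317 at a minimum of 5, 32 and 47 at 20, 4 and 7 at 100, 836 and 603 past 1.5-fold, and 107 and 162 with TMM or DESeq2 factors. Without the mRNAs and rRNAs of mitochondrial DNA in the totals, the top 100 genes held 26.3% (main 28.1%), protein-coding genes 89.9% and antisense genes 3.63%. Protein-coding genes held 89.27% with TMM sizes. The median log2 ratio of protein-coding genes was 0.0193 with DESeq2 factors. With each library alone, the shares ran from 27.7% to 28.5% for the top 100 genes, 89.25% to 89.26% for protein-coding genes, 1.16% to 1.70% for processed pseudogenes, 3.39% to 3.58% for antisense genes, 8.11% to 10.2% for ribosomal proteins, 2.50% to 3.67% for mRNAs of mitochondrial DNA and 0.679% to 0.728% for glycolysis. The median log2 ratios of processed pseudogenes, protein-coding genes, ribosomal proteins and mRNAs of mitochondrial DNA kept their sign under every scaling and minimum run. The exon overlap setting of the GC bins was chosen after seeing the data. Totals of 2476471 and 2671594 counts limit what can be said of genes near 4.04 and 3.74 CPM, the level of 10 counts. No paired analysis was possible because a single group was used.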

Other observations

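Coding genes were counted at different rates by chromosome. On chromosome 19, where the median GC of coding genes was 58.2%, 23.8% of 1468 coding genes were counted, and on chromosome 10, at 46.8% GC, 48.7% of 725 were. Chromosomes of similar GC also differed: 25.7% were counted on chromosome 21, at 49.5% GC, and 39.7% on chromosome 1, at 49.3% GC. All 13 coding genes of mitochondrial DNA were counted. Of 509 coding genes with a ZNF symbol, a family of zinc finger regulators that are mostly repressors, 317 (62.3%) were counted, against 39.1% of all coding genes, and they held 1.35% and 1.42% of the counts. PRC1, a midzone protein of the mitotic spindle, had 17 counts in each library, while PRC1-AS1 on the opposite strand had 582 and 623. MYG1 had no count while MYG1-AS1 had 621 and 559. These pairs were chosen after their values were seen.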
